A study of Mus musculus with 10 samples.

Results

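The GABA-A receptor subunit genes described here are Gabra2, Gabra3, Gabra4, Gabra5, Gabrb1, Gabrb2 and Gabrd, 7 of the 19938 genes named on the arrays. Each gene was taken by its symbol in the platform annotation and represented by its transcript cluster (the set of probes summarised for 1 transcript) with the highest mean over the 10 arrays, and all 7 had one. The question was whether an additional copy of Dyrk1a alters the hippocampal mRNA of these subunits. Tg(Dyrk1a) mice carry that copy on a bacterial artificial chromosome, and 5 of them were compared with 5 wild-type littermates. All mice were males aged 16 weeks with no other allele or treatment, and total RNA came from the whole hippocampus of both sides, 1 array per mouse. The labels give the background as C57BL/6N, whereas the study's methods describe lines bred towards C57BL/6J. By the labels each array is a biological replicate. Levels are deposited log2 values processed by RMA (robust multi-array average), and a difference of 1 on this scale is a doubling.

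GABA-A receptors are chloride channels built from 5 subunits around a central pore, and they carry most fast inhibition in the brain. The alpha subunit largely sets where a receptor sits and how it answers to benzodiazepines, the beta subunit forms the GABA binding site together with alpha, and a gamma subunit usually holds the receptor at the synapse. In the hippocampus, receptors with alpha5 are abundant on pyramidal cell dendrites and give a tonic current. Receptors with alpha4 and delta give a tonic current in dentate granule cells, while receptors with alpha2 are prominent at the axon initial segment. The alpha3 subunit is expressed less widely in this region than alpha2 or alpha5.

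In Tg(Dyrk1a) hippocampi none of the 7 subunit genes differed from wild type beyond the spread between mice. The log2 fold changes lay between -0.050 (Gabra3) and 0.050 (Gabra5), 4 above 0 and 3 below it, with a median of 0.0033 against a median of 0.0010 over all 23410 annotated transcript clusters. By limma with Benjamini-Hochberg adjustment over those clusters, 0 of 7 passed an adjusted p of 0.05, where the share called over all clusters was 0.00854% (2 of 23410). At an unadjusted p under 0.05 limma also called 0 of 7, against 4.93% of all clusters. The rank-based FCROS f-value, the study's own kind of test, called 0 of 7 against 4.83%. That FCROS share is largely set by its cut, since the f-value is scaled over all clusters. For all 7 genes the values of the 2 genotypes overlapped, and groups that did not overlap made up 0.807% of all clusters. Dyrk1a itself was higher in Tg(Dyrk1a) mice (log2 fold change 0.47 ± 0.034 SE, adjusted p = 0.000138), so the arrays resolved a change of that size. Array medians ranged between 6.57 and 6.66, and any pair of arrays correlated at 0.9942 to 0.9983 over clusters.

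**Figure D1:**
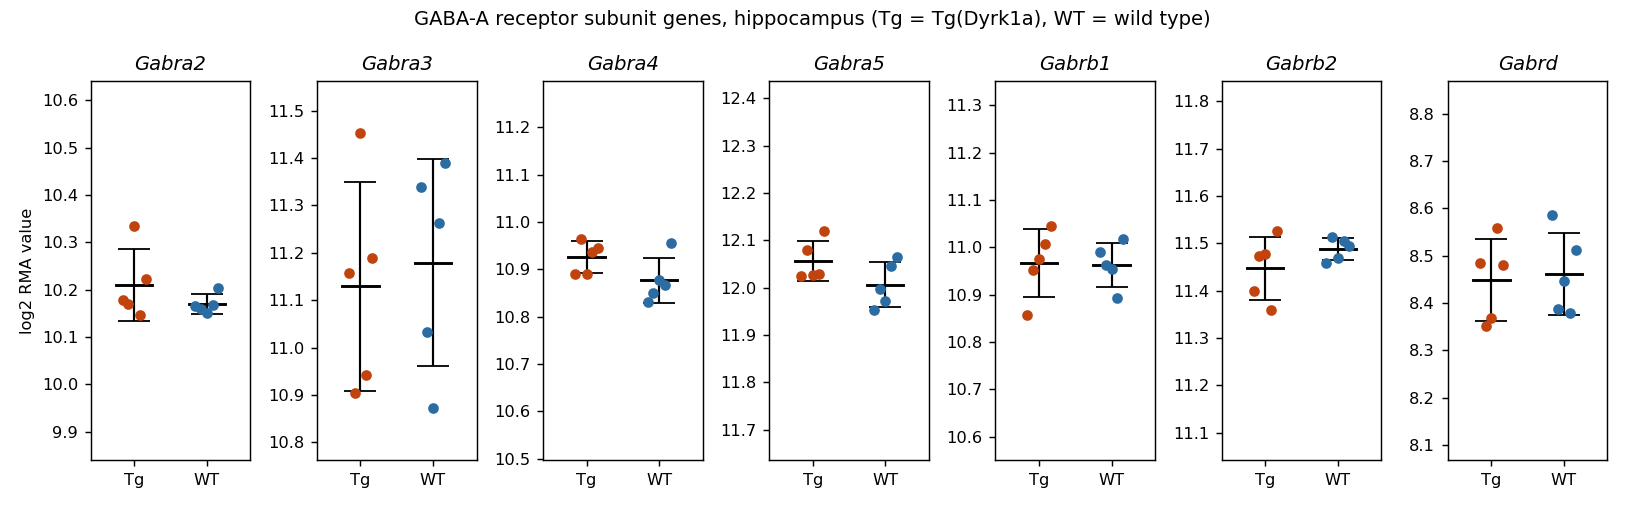
Log2 RMA value (y axis) of each of the 7 subunit genes in Tg(Dyrk1a) (Tg, left) and wild-type (WT, right) hippocampi, 1 point per mouse, with the mean (bar) and SD (whiskers) of 5 mice. Every panel spans the same range of log2 units. The groups overlap in all 7 panels, and Gabra3 has the widest scatter, 0.22 SD in each genotype.

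Gabra5 encodes the alpha5 subunit of extrasynaptic dendritic receptors and lies on chromosome 7 (57407669 to 57591016, minus strand, GRCm38.p6), beside Gabrg3. Its log2 values were 12.03, 12.08, 12.03, 12.03 and 12.12 in Tg(Dyrk1a) mice, against 11.95, 12.00, 11.97, 12.05 and 12.06 in wild-type mice. All 5 Tg(Dyrk1a) values lay above the wild-type mean, and 2 of them above every wild-type value. The difference of 0.050 ± 0.034 (SE, 95% interval -0.024 to 0.12) had an unadjusted p of 0.165 and an adjusted p of 0.948 by limma, and a two-sided exact permutation p of 0.135, where 0.00794 is the smallest that 5 against 5 mice can give.

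Gabra4 encodes the alpha4 subunit, which pairs with delta in extrasynaptic receptors of granule cells. In log2 units the values were 10.89, 10.97, 10.89, 10.94 and 10.95 in Tg(Dyrk1a) mice, and 10.83, 10.85, 10.88, 10.87 and 10.96 in wild-type mice. All 5 Tg(Dyrk1a) values were again above the wild-type mean, but the highest wild-type value, replicate 5, reached into the upper end of the Tg(Dyrk1a) range. The difference was 0.049 ± 0.033 (SE, 95% interval -0.022 to 0.12), with an adjusted p of 0.948 by limma and an exact permutation p of 0.0873. The gene was among the least variable of the clusters above the median level, with a pooled within-genotype SD higher than that of 11.4% of them, and the corresponding figure for Gabra5 was 15.1%.

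Gabra2 encodes the alpha2 subunit, found at synapses and at the axon initial segment. Its log2 values were 10.18, 10.17, 10.34, 10.15 and 10.22 in Tg(Dyrk1a) mice, against 10.17, 10.16, 10.15, 10.17 and 10.20 in wild-type mice. Replicate 3 of the Tg(Dyrk1a) mice was the highest of all 10, and the other 4 Tg(Dyrk1a) values lay between 10.15 and 10.22. The difference was 0.041 ± 0.038 (SE, 95% interval -0.041 to 0.12, adjusted p = 0.956 by limma, exact permutation p = 0.294). The SD was 0.075 in Tg(Dyrk1a) mice and 0.021 in wild-type mice, 3.62 times as large. That ratio was not tested, and without Tg(Dyrk1a) replicate 3 the difference was 0.0094.

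Gabra3 encodes the alpha3 subunit and is X-linked (X, 72432676 to 72656919, minus strand). The log2 values spread widely, at 11.16, 10.90, 11.45, 10.94 and 11.19 in Tg(Dyrk1a) mice, and 11.34, 11.03, 10.87, 11.26 and 11.39 in wild-type mice. The highest and the lowest mouse of 1 genotype differed 1.46-fold in Tg(Dyrk1a) and 1.43-fold in wild type, and both ranges covered nearly the same values. The pooled within-genotype SD of 0.22 was higher than that of 98.7% of the clusters above the median level, whose median SD was 0.0707. The difference between genotypes was -0.050 ± 0.11 (SE, 95% interval -0.30 to 0.20, adjusted p = 0.98 by limma, exact permutation p = 0.706). In fold terms this interval ran from 0.814 to 1.15, the least precise of the 7. Without 1 mouse at a time the difference ran from -0.13 (without Tg(Dyrk1a) replicate 3) to 0.0063 (without Tg(Dyrk1a) replicate 2).

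The beta genes encode the subunits that complete the GABA binding site. Gabrb1 (beta1) lies head to head with Gabra4 on chromosome 5 (71657921 to 72149572, plus strand), the 5′ ends of the annotated genes overlapping by 388 bases. Its log2 values were 10.86, 10.95, 10.97, 11.01 and 11.05 in Tg(Dyrk1a) mice, and 10.99, 10.96, 10.95, 10.89 and 11.02 in wild-type mice. The Tg(Dyrk1a) range enclosed the whole wild-type range, and the difference was 0.0033 ± 0.040 (SE, 95% interval -0.082 to 0.089, adjusted p = 0.997 by limma, exact permutation p = 0.913).

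Gabrb2 (beta2) lies on chromosome 11 (42419515 to 42632591, plus strand) in a cluster with other subunit genes. Its log2 values were 11.40, 11.47, 11.48, 11.36 and 11.53 in Tg(Dyrk1a) mice, and 11.46, 11.51, 11.47, 11.50 and 11.49 in wild-type mice. Replicates 1 and 4 of the Tg(Dyrk1a) mice were below every wild-type mouse and replicate 5 was above them all. The difference was -0.041 ± 0.036 (SE, 95% interval -0.12 to 0.037, adjusted p = 0.954 by limma, exact permutation p = 0.27), and the SD was 0.067 in Tg(Dyrk1a) mice and 0.023 in wild-type mice. The gene had another 2 transcript clusters with other probes, and these gave 0.024 ± 0.036 (SE, adjusted p = 0.973) and -0.039 ± 0.038 (SE, adjusted p = 0.961), so the probe sets did not share a direction.

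Gabrd encodes the delta subunit of tonic, neurosteroid-sensitive receptors and lies on chromosome 4 (155384979 to 155398098). Log2 values were 8.48, 8.35, 8.37, 8.56 and 8.48 in Tg(Dyrk1a) mice, and 8.59, 8.39, 8.45, 8.38 and 8.51 in wild-type mice. High and low mice occurred in both genotypes, and the difference was -0.013 ± 0.051 (SE, 95% interval -0.12 to 0.097, adjusted p = 0.986 by limma, exact permutation p = 0.786). Apart from Gabra3, the 95% intervals of the subunit genes lay between -0.12 and 0.12 on the log2 scale, folds of 0.918 (lower end of Gabrd) to 1.09 (upper end of Gabra5). Changes larger than that in the whole-hippocampus array signal lay outside these intervals of the fit without covariates. RMA compresses fold changes, so the intervals do not bound the change of mRNA itself. With the choroid plexus, thalamus and meninges scores as covariates, Gabrd had 0.095 ± 0.077 (SE) and Gabrb2 -0.097 ± 0.055 (SE). A change of the same size in 1 cell type could not be read from bulk tissue.

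**Figure D2:**
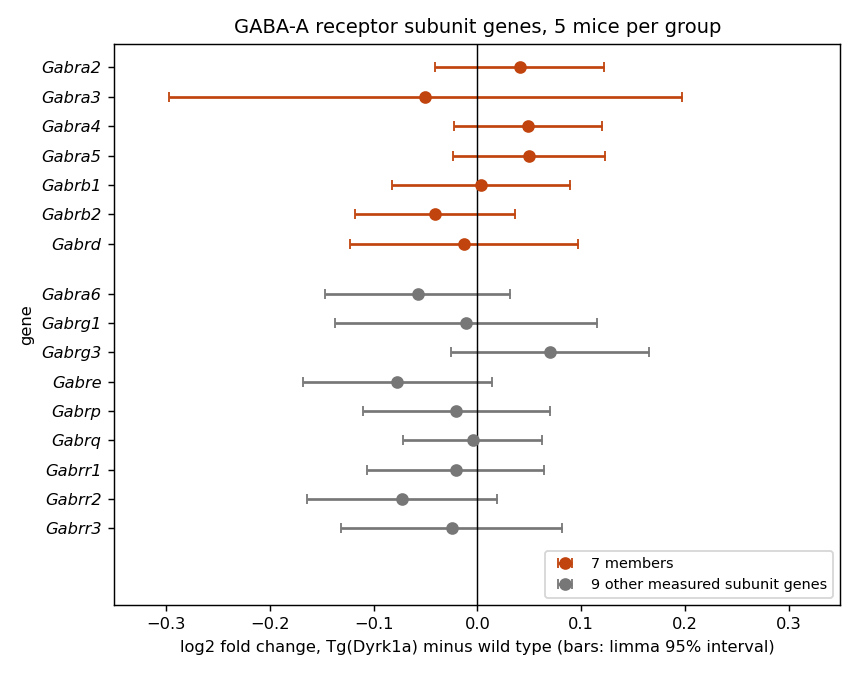
Log2 fold change (x axis, Tg(Dyrk1a) minus wild type) of the 7 members (orange) and of the 9 other measured GABA-A subunit genes (grey), 5 mice per genotype. Points are limma estimates and bars their 95% intervals. All 16 intervals cross 0, and that of Gabra3 (-0.30 to 0.20) is the widest.

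The rest of the GABA-A system was described by 4 lists, of which 33 of 37 genes were measured. None of the 33 passed an adjusted p of 0.05, an unadjusted p under 0.05 or the FCROS threshold. Over all clusters the shares called were 0.00854%, 4.93% and 4.83%, and at such shares few or none of 33 genes are called. Of the 33, 16 had a log2 fold change above 0 and 17 below it (median -0.0044), where 50.9% of all clusters were above 0. Among 9 measured other subunits (of 12 listed), 8 were below 0 and 1 above, with a median of -0.021. Gabrg3, a gamma subunit gene that neighbours Gabra5, had the highest value of them (0.070, adjusted p = 0.947), and Gabre, the epsilon subunit gene, the lowest (-0.077, adjusted p = 0.947). Gabre lay near the array floor, with a mean log2 level of 5.05 in Tg(Dyrk1a) mice and 5.12 in wild-type mice. Gabra6, Gabrp, Gabrq, Gabrr1 and Gabrr3, also below 0, were dim too, at percentiles 7.2 (Gabra6) to 22.9 (Gabrq) of mean level over all clusters. Most of the genes below 0 were therefore near the floor. Several genes of this list, such as the rho subunit genes best known from the retina and Gabra6 from cerebellar granule cells, belong to other brain regions.

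The 11 measured genes for synaptic scaffold and auxiliary proteins (of 12 listed) had a median log2 fold change of 0.0068, 7 above 0 and 4 below. Their ends were Slitrk3, a synaptic adhesion protein of inhibitory contacts (0.041), and Mdga1, which binds neuroligin-2 (-0.048). The 11 genes for receptor trafficking had a median of 0.011, 7 above 0 and 4 below, from -0.034 (Plcl2) to 0.068 (Plcl1). Plcl1 and Plcl2 encode PRIP proteins that bind beta subunits and phosphatases. Of the chloride transporters, which set the driving force for chloride, Slc12a2 (NKCC1) had 0.033 and Slc12a5 (KCC2) -0.010, and neither passed the test (the lower adjusted p was 0.976).

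One pair of subunit genes varied together from mouse to mouse. Values were taken as deviations from the mean of their genotype, and each of the 21 pairs was correlated over 10 mice, with permutation of mice within genotype and Benjamini-Hochberg adjustment over the 21 pairs. Gabra2 and Gabra3 had the highest correlation (Pearson r = 0.779, exact permutation p = 0.000278, adjusted 0.00584; Spearman rho = 0.842, p = 0.000417, adjusted 0.00876). The correlation was 0.926 within the Tg(Dyrk1a) mice, where replicate 3 was the highest for both genes, and 0.777 within the wild-type mice. Over the wild-type mice Gabra2 spanned only 0.054 log2 units (1.04-fold). The closest pair of arrays had a median absolute log2 difference of 0.0577, so the wild-type value rests on a very small spread. The correlation over both genotypes was 0.697 after the 2 mice with Gabra2 deviations farthest from their median were left out. A correlation of this size was not particular to the pair, since of 9756 other named genes above the median level, 460 correlated at least as highly with Gabra3 (4.72%) and 91 with Gabra2 (0.933%).

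Gabra4 and Gabra5 came next, with r = 0.732 (exact permutation p = 0.0214, adjusted 0.225) and rho = 0.721 (p = 0.0285, adjusted 0.299). Without the 2 mice farthest on Gabra4 r was 0.607. Gabra5 and Gabrb2 had r = 0.641 (exact permutation p = 0.0378, adjusted 0.265) and rho = 0.564 (p = 0.0624, adjusted 0.328). The head-to-head neighbours Gabra4 and Gabrb1 had r = 0.438 (exact permutation p = 0.204, adjusted 0.85) and rho = 0.321 (p = 0.385, adjusted 0.667). The lowest pair was Gabrb2 and Gabrd with r = -0.582 (exact permutation p = 0.0988, adjusted 0.519) and rho = -0.661 (p = 0.0505, adjusted 0.328). None of these passed the adjustment. All pairs share the same 10 RNA samples and their normalization.

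**Figure D3:**
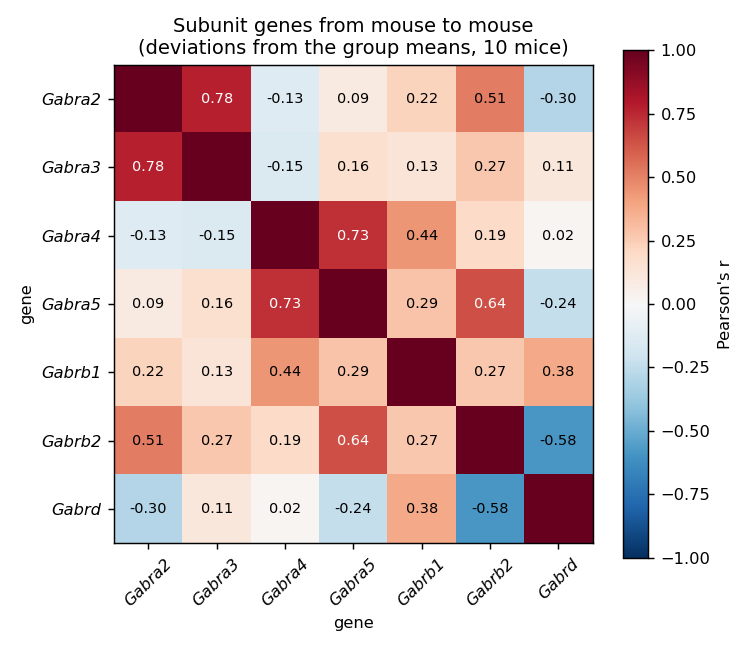
Pearson's r (colour and number) between the 7 subunit genes (both axes) over 10 mice, after the mean of each genotype was subtracted. Gabra2 and Gabra3 have the highest value (0.78), Gabra4 and Gabra5 follow (0.73), and Gabrb2 and Gabrd have the lowest (-0.58).

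Gabra2 and Gabra3 lie on different chromosomes, and the 250 bases before their annotated outermost starts are shown because these were the genes that varied together. The sequences are from RefSeq for GRCm38.p6, on the minus strand of the chromosome, 5′ to 3′. Capitals mark the motif found, GGGCGG in Gabra2 and, in Gabra3, TATAAA as it reads on the opposite strand.
Gabra2, chr5:71095850-71096099: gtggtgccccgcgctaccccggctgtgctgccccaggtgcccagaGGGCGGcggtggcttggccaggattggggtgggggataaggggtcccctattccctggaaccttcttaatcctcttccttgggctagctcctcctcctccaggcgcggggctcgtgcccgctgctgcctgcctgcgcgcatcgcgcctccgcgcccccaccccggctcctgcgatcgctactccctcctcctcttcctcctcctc
Gabra3, chrX:72656920-72657169: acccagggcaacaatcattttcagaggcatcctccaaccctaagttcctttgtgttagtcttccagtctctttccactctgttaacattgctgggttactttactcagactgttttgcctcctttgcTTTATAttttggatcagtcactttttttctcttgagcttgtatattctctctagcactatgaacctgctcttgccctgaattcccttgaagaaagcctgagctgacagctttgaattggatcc

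The 2 windows were unlike in composition. That of Gabra2 was 70.0% G and C with 18 CpG dinucleotides and 1 GGGCGG, the core of an Sp1 motif. That of Gabra3 was 42.4% G and C with 0 CpG and 1 TATAAA. Over 32851 such windows of the mouse genome the median was 52.4% G and C and 6 CpG. On both strands, 32.74% of windows held GGGCGG, 12.37% TATAAA, 6.02% the E-box CACGTG, 1.55% the cAMP response element TGACGTCA and 0.54% the Egr1 motif GCGTGGGCG, and neither window shown held any of the last 3 motifs. A match describes these letters only.

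Levels of Gabra3 varied beside the markers of 2 hippocampal cell types. Marker scores are the mean over a list of each gene's log2 deviation from its mean over the 10 mice. In bulk tissue, fewer cells of a type and less RNA per cell cannot be told apart. The dentate granule cell score was 0.056, 0.25, -0.10, 0.084 and 0.035 in Tg(Dyrk1a) mice, against -0.051, 0.017, 0.037, -0.12 and -0.20 in wild-type mice. Mice with a high dentate score had low Gabra3 in both genotypes: Tg(Dyrk1a) replicate 2, the highest on the score, had the lowest Gabra3 of its genotype, and Tg(Dyrk1a) replicate 3, the lowest on the score, had the highest. The correlation was r = -0.884 (exact permutation p = 0.00292, 0.0818 after adjustment over 56 pairs of a subunit and a marker list) and rho = -0.903 (p = 0.00194, adjusted 0.0739). Without the 2 mice farthest on Gabra3 r was -0.828. By gene, 8 of 9 measured dentate markers correlated negatively with Gabra3, from -0.932 (C1ql2) upwards, Prox1 at -0.814. The exception was Tdo2 (0.023), whose mean log2 level of 6.17 in Tg(Dyrk1a) mice and 5.92 in wild-type mice was below the median of the arrays.

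The GABAergic interneuron score was high where Gabra3 was high. It was 0.094, -0.042, 0.096, -0.022 and 0.033 in Tg(Dyrk1a) mice, and 0.040, -0.075, -0.13, 0.0089 and -0.0049 in wild-type mice. Gabra3 correlated with it at r = 0.907 (exact permutation p = 0.00222, adjusted 0.0818) and rho = 0.855 (p = 0.00396, adjusted 0.0739). Without the 2 mice farthest on Gabra3 r was 0.871. Of 12 interneuron markers, 11 correlated positively with Gabra3, Nos1 most (0.911), then Vip (0.876) and Gad2 (0.804), while Npy had -0.194. Neither score passed the adjustment over 56 pairs. The 2 scores ran opposite to each other in some mice. Tg(Dyrk1a) replicate 3 was the lowest of its genotype on the dentate score and the highest on the interneuron score. Wild-type replicate 3 was the highest of its genotype on the dentate score and the lowest on the interneuron score. Whether Gabra3 varied with each score apart from the other was not tested. For Gabra2 the values were -0.747 with the dentate score (exact permutation p = 0.025, adjusted 0.233; rho = -0.818, p = 0.00278, adjusted 0.0739) and 0.527 with the interneuron score (exact permutation p = 0.106, adjusted 0.594; rho = 0.552, p = 0.106, adjusted 0.54).

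**Figure D4:**
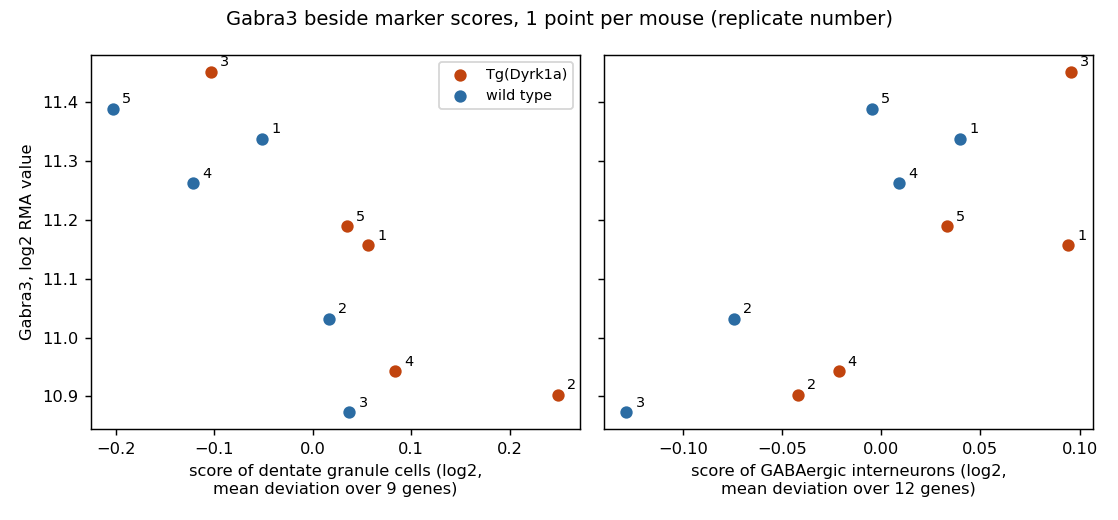
Gabra3 log2 RMA value (y axis) against the dentate granule cell score (left panel, 9 genes) and the GABAergic interneuron score (right panel, 12 genes), both in log2 units, 1 point per mouse, numbered by replicate. After subtraction of the genotype means r was -0.884 for the dentate score and 0.907 for the interneuron score, and within each genotype the signs were the same (-0.913 and 0.873 in Tg(Dyrk1a), -0.859 and 0.941 in wild type).

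Between genotypes, 50.9% of all clusters had a log2 fold change above 0, 4.93% an unadjusted p under 0.05 and 4.83% an FCROS call. The 9 measured dentate markers (of 10 listed) all had a log2 fold change above 0, with a median of 0.12, 3 at an unadjusted p under 0.05 and 5 called by FCROS, and the scores overlapped (-0.10 to 0.25 in Tg(Dyrk1a) mice, -0.20 to 0.037 in wild-type mice). Of the 12 interneuron markers 11 were above 0, with a median of 0.047, 3 at an unadjusted p under 0.05 and 4 called by FCROS. Other lists leaned to 1 side too. All 12 markers of meninges and fibroblasts were above 0 (median 0.26, 4 at an unadjusted p under 0.05, 10 by FCROS). All 11 of thalamus and habenula were below 0 (median -0.12, 1 at an unadjusted p under 0.05, 2 by FCROS). Scores of this last list were -0.12 to -0.030 in Tg(Dyrk1a) mice and -0.14 to 0.47 in wild-type mice. Wild-type replicate 5 alone had the 0.47, the next wild-type value was 0.099 (replicate 3), and that 1 mouse raised the wild-type mean (0.066). No gene of these 4 lists passed an adjusted p of 0.05. With the dentate score as a covariate in limma, Gabra3 changed sign to 0.17 ± 0.071 (SE, unadjusted p = 0.035, adjusted p = 0.941) and Gabra2 had 0.087 ± 0.039 (SE, unadjusted p = 0.0429, adjusted p = 0.941). The part of granule cell content in these values was not tested.

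The tonic subunits that granule cells are known for had correlations near 0 with the dentate score. The r was 0.0060 for Gabra4 (exact permutation p = 0.985, adjusted 0.991; rho = 0.152, p = 0.694, adjusted 0.975) and -0.144 for Gabrd (exact permutation p = 0.705, adjusted 0.906; rho = -0.103, p = 0.8, adjusted 0.975). For Gabra4 the value near 0 joined opposite signs, 0.774 within the Tg(Dyrk1a) mice and -0.686 within the wild-type mice, a difference that was not tested. The highest Pearson r of Gabra4 were those with the choroid plexus score (r = 0.819, exact permutation p = 0.00715, adjusted 0.133; rho = 0.721, p = 0.0262, adjusted 0.317) and the thalamus and habenula score (r = 0.816, exact permutation p = 0.0112, adjusted 0.157; rho = 0.685, p = 0.0286, adjusted 0.317). By rho, oligodendrocytes came between them (rho = 0.697, exact permutation p = 0.0415, adjusted 0.332; r = 0.583, p = 0.103, adjusted 0.594). Without the 2 mice farthest on Gabra4 r was 0.533 for choroid plexus and 0.475 for thalamus and habenula, and their p was not computed. Of the 3 mice with choroid plexus scores over 0.5, Tg(Dyrk1a) replicate 2, Tg(Dyrk1a) replicate 4 and wild-type replicate 5, the last also had the highest thalamus score (0.47). Without these 3 arrays Gabra4 had a log2 fold change of 0.052 ± 0.037 (SE, adjusted p = 0.887) and Gabra3 one of 0.14 ± 0.11 (SE, adjusted p = 0.895).

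The genes most alike to each subunit were found among the same 9756 genes by the highest Pearson r of deviations over 10 mice, as a description. For Gabra3 these were L1cam, a neuronal adhesion molecule 1.2 megabases away on the X chromosome (r = 0.975), and Tmem130 (0.967). For Gabra2 they were Bpnt2 (0.963) and Znhit6 (0.947), and for Gabra4 Rbmx, an RNA-binding protein (0.958), and Bmp6, a BMP ligand (0.957). Gabra5 was nearest to Zbtb6 (0.941) and Cers5, a ceramide synthase (0.934), and Gabrb1 to Slc25a37, a mitochondrial iron importer (0.943), and Thsd7a (0.941). Gabrb2 was nearest to Pds5b, a cohesin regulator (0.971), and Gpbp1 (0.967). Gabrd had the lowest of these values, with Cdc25b, a cell cycle phosphatase (0.899), and Qtrt1, which modifies tRNA (0.889). Of the 14 genes none was another GABA-A receptor gene, and none passed an adjusted p of 0.05 between genotypes (lowest 0.947).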

How the data were processed

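Total RNA was labelled and hybridised to Affymetrix Mouse Gene 1.0 ST arrays, 1 per mouse. The authors deposited log2 values made by RMA, which subtracts background, normalizes between arrays and summarises probes per transcript cluster, and so compresses fold changes. The submitters' processing notes name RMA, limma and build mm10. Of 35556 rows, 23410 had a gene in the platform annotation (21789 with 1 symbol, 1621 with several) and 12146 had none and were left out. Gene positions and promoter windows came from RefSeq, GRCm38.p6.

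Tg(Dyrk1a) and wild-type arrays entered 1 limma fit (version 3.58.1, R 4.3.3; lmFit, eBayes, no covariate) over the annotated clusters with Benjamini-Hochberg adjustment, and per gene with a two-sided exact permutation test. The fit was tested on simulated data. FCROS was rewritten from its description (ranks of 25 between-genotype pairs, 25% trimmed at each end, f-value in the outer 0.025). The number of arrays limits precision. The main fit did not pair mice by replicate number. The members and lists were chosen with earlier results of these data known. Named were the 7 members, Dyrk1a, the highest and lowest gene of each GABA-A list and any at an unadjusted p under 0.05 (there was none), marker genes near the array floor, and the 2 genes most alike to each member among named genes above the median level, without predicted genes. The other markers and subunit genes named were chosen after their values were seen. Correlations had been planned without a p. Alternatives covered normalization, filter, variance model, array weights, replicate block, probe sets, FCROS, left-out arrays and marker covariates.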

Additional observations from a re-analysis of the deposited data

Results flagged for a closer look

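By the limit given below, none of the 7 subunit genes had a mouse far from the rest of its genotype. Gabra2 was 10.20 in wild-type replicate 5, against 10.15 to 10.17 in the other wild-type mice, and stayed under that limit. So did its 10.34 in Tg(Dyrk1a) replicate 3, against 10.15 to 10.22 in the others. In the 40 genes of the members and the GABA-A lists, 80 groups of 5 mice were examined, and 7 held a mouse whose gap to the nearest other exceeded 0.71 of the range (Dixon's 95% limit); chance gives such a gap in about 1 in 20 groups. In Tg(Dyrk1a) mice, Plcl1 (a PRIP protein) was 8.92 in replicate 2, against 8.62 to 8.70 in the other 4. Hap1, a transport adaptor for GABA-A receptors, was 8.75 in the same mouse, against 8.99 to 9.09. Gabrp, the pi subunit gene, was 5.43 in replicate 1, against 5.24 to 5.27, all near the array floor. Insyn1, an inhibitory synapse protein, was 9.53 in replicate 4, against 9.62 to 9.64. In wild-type mice, Gabarap (a receptor-associated protein) was 12.17 in replicate 5, against 12.12 to 12.14, and Dmd (dystrophin) was 8.17 in that mouse, against 8.0025 to 8.0438. Arfgef2, a trafficking exchange factor, was 9.31 in replicate 3, against 9.36 to 9.37.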

How the results depend on the processing

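Each log2 fold change was recomputed under 21 alternatives, and none of the 7 genes passed an adjusted p of 0.05 under any of them (lowest adjusted p 0.717, Gabra4 without wild-type replicate 5). Gabra2, Gabra4, Gabra5 and Gabrb2 kept their sign in all 21; Gabra3, Gabrb1 and Gabrd reversed in 5 each, and the cause was not tested. Without 1 mouse at a time the ranges were 0.0094 to 0.057 for Gabra2, -0.13 to 0.0063 for Gabra3, 0.037 to 0.069 for Gabra4, 0.034 to 0.065 for Gabra5, -0.016 to 0.031 for Gabrb1, -0.060 to -0.019 for Gabrb2 and -0.041 to 0.018 for Gabrd. Gabrb1 was -0.0069 after quantile normalization and -0.0013 after median centring. Gabra3 was 0.023 with array weights, 0.14 without the 3 arrays whose choroid plexus score exceeded 0.5 and 0.17 with the dentate score as a covariate. Gabrd was 0.0010 with the dentate score and 0.095 with 3 scores (choroid plexus, thalamus, meninges) as covariates. With the dentate score 2 members (Gabra2 and Gabra3) had an unadjusted p under 0.05.

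Deviations of same-numbered mice of the 2 genotypes had no common sign of correlation (r -0.285 to 0.276). Shared litters or batches were not tested. With the number as a replicate block 0 members passed, the median member log2 fold change was 0.0033, and 1 cluster passed an adjusted p of 0.05 instead of 2. That count over all clusters was 1 over all rows, 1 with a trend and robust variance, 5 with array weights, 1 without the 3 arrays, 0 with the 3 scores, 1 with the dentate score, 1 to 2 without 1 mouse, and 1131 by FCROS, which has no such adjustment. With 5 mice per genotype the standard errors of 0.033 to 0.11 set what could be seen.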
